A study of Mus musculus with 6 samples.

Results

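The Cyp4a omega-hydroxylases of the mouse and the fatty aldehyde dehydrogenase Aldh3a2 were followed in the liver of high-fat-fed mice with and without hepatocyte let-7b and let-7c-2. The 7 genes were taken by name, as Cyp4a10, Cyp4a14, Cyp4a31, Cyp4a32, Cyp4a12a, Cyp4a12b and Aldh3a2. All 7 were found among the 14002 listed genes, and all 7 passed the filter on low values that left 11168 genes for testing. The livers came from 6 C57BL/6 mice, 3 wild type and 3 with a knockout of the let-7b and let-7c2 microRNAs in hepatocytes, called LKO. Every mouse, controls included, had eaten a 60% high-fat diet for 8 weeks and is labelled as 8 weeks old. The labels do not say what drives the deletion in hepatocytes, and they do not give the sex. RNA was taken from liver, so each library holds hepatocytes together with the other liver cells. The knocked-out microRNAs themselves were not analysed here.

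Omega-oxidation is a side route of fatty acid breakdown that starts at the methyl end of the chain. Cyp4a enzymes are cytochromes P450 of the endoplasmic reticulum that put a hydroxyl group on that end, with electrons passed on by cytochrome P450 reductase. The alcohol is then oxidised to an aldehyde and, by enzymes such as Aldh3a2, to a dicarboxylic acid that peroxisomes can shorten. Cyp4a10 and Cyp4a14 are textbook targets of PPARα, the fatty-acid-sensing nuclear receptor named in the title of the series, and Aldh3a2 is a known PPARα target as well. Cyp4a12a is a hydroxylase of lauric and arachidonic acid with higher expression in male than in female mice.

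Coding sequences are shown first because close copies share reads. The 6 Cyp4a genes lie together on chromosome 4, and 5 of them fall into sets of close copies. Over the coding sequence (GENCODE M21, GRCm38), Cyp4a10 was 96.6% identical to Cyp4a31 and 97.2% to Cyp4a32, Cyp4a12a was 98.5% identical to Cyp4a12b, and Cyp4a14 was between 75.2% and 75.9% identical to the other members. The stretch that codes for the heme-binding loop of the P450 fold is shown because it is alike within each set of copies. Capitals mark the bases that differ from Cyp4a14, and the stretch starts at coding base 1339 in Cyp4a14.
Cyp4a14: ttctcaggaggatcaaggaactgcattggg
Cyp4a10: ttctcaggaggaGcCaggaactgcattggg
Cyp4a31: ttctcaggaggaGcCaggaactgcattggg
Cyp4a32: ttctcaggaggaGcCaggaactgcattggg
Cyp4a12a: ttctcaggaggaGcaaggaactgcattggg
Cyp4a12b: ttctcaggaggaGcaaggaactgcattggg
Cyp4a10, Cyp4a31 and Cyp4a32 carried 1 sequence here, Cyp4a12a and Cyp4a12b another, and Cyp4a14 one of its own.

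Reads can be told apart where the copies differ. Coding bases 1448 to 1477 are among the most variable of the Cyp4a10, Cyp4a31 and Cyp4a32 set, with 6 variable bases in 30, and 77 of the 1527 coding bases vary in all. Capitals mark the variable bases.
Cyp4a10: ctaccagggtCcccATgCccttagcCcgaC
Cyp4a31: ctaccagggtCcccATgTccttagcCcgaT
Cyp4a32: ctaccagggtTcccGAgCccttagcAcgaA
Cyp4a12a and Cyp4a12b differ at 23 of 1524 coding bases, of which 4 fall within bases 654 to 683.
Cyp4a12a: agttgaggacctgaacGatctcGtttttTC
Cyp4a12b: agttgaggacctgaacAatctcTtttttCT
Of all 75-base windows of the transcript, 0% were shared with another Cyp4a member in Cyp4a14, 19.1% in Cyp4a10, 13.3% in Cyp4a31, 30.4% in Cyp4a32, 40.8% in Cyp4a12a and 41.3% in Cyp4a12b. This window length is an example, because no source used here states the read length.

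The deposited values carried the trace of this sharing. No unit is given for the deposited signal. From the spacing of its values, it was read as an estimated read count times 1 factor per library. On this reading, the estimated reads of the listed genes summed to between 8549483 and 10764825 per library. Cyp4a14 and Aldh3a2 came to whole reads in 6 of 6 libraries, within 0.005 of a read. Cyp4a10, Cyp4a31, Cyp4a32, Cyp4a12a and Cyp4a12b came to fractional reads in every library. The fractions cancelled when copies were added: Cyp4a10, Cyp4a31 and Cyp4a32 together were whole within 0.02 of a read in 6 of 6 libraries, and so were Cyp4a12a and Cyp4a12b together. Any 2 members of the set of 3 added up to whole reads in at most 1 of 6 libraries. Reads of these 5 genes were thus divided within their set, so their single values are uncertain, while Cyp4a14, Aldh3a2 and the sums of the sets are not touched by the division.

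Comparing LKO with wild type livers asked how omega-oxidation transcripts differ when hepatocytes lack let-7b and let-7c-2. Cyp4a14, Cyp4a10 and Aldh3a2 fell in LKO, Cyp4a31, Cyp4a32, Cyp4a12a and Cyp4a12b did not pass the test in either direction, and no member rose. These 3 of 7 members stand beside 1.69% of all tested genes lowered, 1.82% raised and 3.51% called in either direction at an adjusted p under 0.05 (limma, Benjamini-Hochberg over all 11168 genes, two-sided). Each fold change below is the LKO mean less the wild type mean of log2(signal + 1). In bulk liver, fewer cells of a type and less RNA per cell cannot be told apart.

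Cyp4a14 (ENSMUSG00000028715.2, GRCm38, chr4:115486200-115496142, minus strand) is an inducible hydroxylase of medium-chain and long-chain fatty acids. Its signal was 1161, 1086 and 2814 in wild type replicates 1, 2 and 3, and 17.5, 40.0 and 10.4 in the LKO replicates. Every wild type liver lay far above every LKO liver, and wild type replicate 3 was the highest. Behind these signals stood 8610 to 25471 estimated reads in wild type and 93 to 269 in LKO. The mean was 1687 ± 977 (SD, n = 3) in wild type and 22.6 ± 15.5 in LKO, a 74.5-fold ratio of means. The log2 fold change was −6.22 (SE 0.46, limma adjusted p = 1.7e-04), the second lowest of all tested genes, at rank 2.

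Cyp4a10 (ENSMUSG00000066072.13, chr4:115518264-115533649, plus strand) is the other inducible hydroxylase. Wild type replicates 1, 2 and 3 held 599.6, 794.4 and 1703, and the LKO replicates held 58.0, 163 and 72.3. The groups did not overlap, and replicate 2 was the highest of the LKO livers, as it was for Cyp4a14. The mean went from 1032 ± 589 (SD, n = 3) to 97.8 ± 57.0, a 10.6-fold ratio, and the log2 fold change was −3.39 (SE 0.42, limma adjusted p = 0.00375). It ranked at 4 from the lowest of all tested genes. The sum of Cyp4a10, Cyp4a31 and Cyp4a32, which does not depend on how reads were divided, went from 1084 ± 597 to 137 ± 72.3, with a log2 fold change of −2.96 (limma adjusted p = 0.00447).

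Aldh3a2 (ENSMUSG00000010025.19, chr11:61223417-61267464, minus strand) oxidises long-chain fatty aldehydes at the endoplasmic reticulum and in peroxisomes. Its wild type signals of 690, 752 and 768 lay close together, with a coefficient of variation of 5.57%. The LKO livers held 367, 163 and 216, all below wild type and more spread, with replicate 1 the highest. The log2 fold change was −1.64 (SE 0.24, limma adjusted p = 0.00752), a 2.96-fold ratio of means, at rank 49 from the lowest. All 3 of these calls held when any 1 library was left out.

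**Figure D1:**
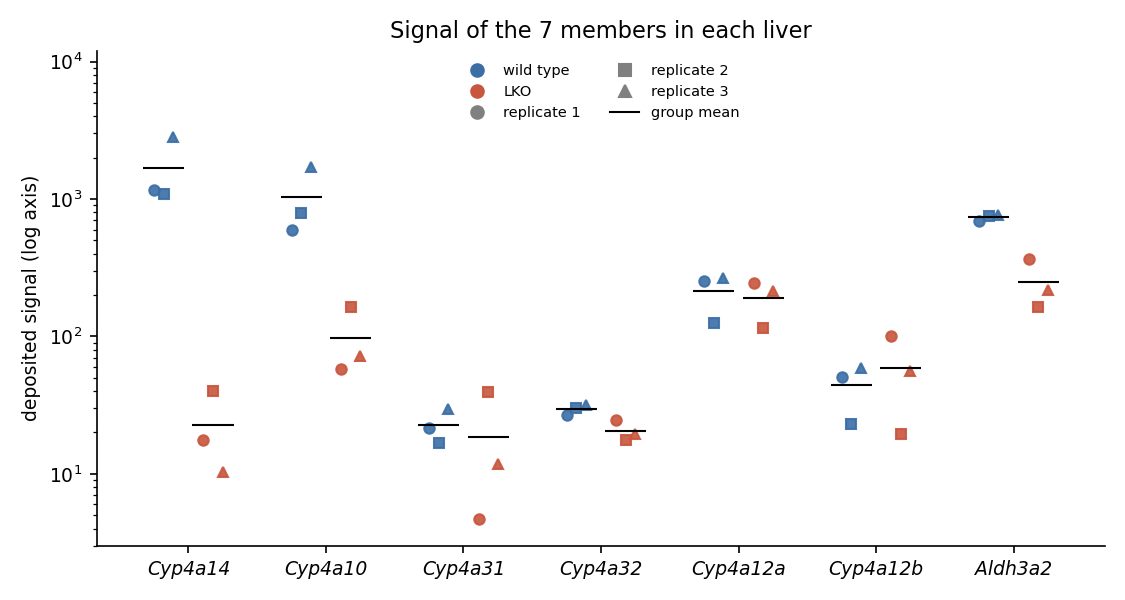
Deposited signal of the 7 members (log axis) in each wild type (blue) and LKO (red) liver; symbols give the replicate number and black lines the group means. Cyp4a14, Cyp4a10 and Aldh3a2 separate the groups widely, Cyp4a32 narrowly, and Cyp4a31, Cyp4a12a and Cyp4a12b overlap.

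The minor copies of Cyp4a10 did not pass the test. Cyp4a32 (ENSMUSG00000063929.6, chr4:115600969-115621602, plus strand) held 26.6, 29.97 and 31.8 in wild type and 24.6, 17.6 and 19.4 in LKO. The groups did not overlap, yet the log2 fold change of −0.51 (SE 0.15) missed the threshold with a limma adjusted p of 0.105. Groups that do not overlap with LKO below were found in 11.9% of all tested genes. Without LKO replicate 1 the gene passed the threshold, with a log2 fold change of −0.64 and a limma adjusted p of 0.0424. Cyp4a31 (ENSMUSG00000028712.12, chr4:115563649-115579015, plus strand) held 21.7, 16.7 and 29.6 in wild type and 4.71, 39.2 and 11.8 in LKO. Its LKO values lay on both sides of the wild type range, with the highest of all 6 livers in LKO replicate 2, and the log2 fold change was −0.69 (SE 0.56, limma adjusted p = 0.553).

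Of the reads divided among Cyp4a10, Cyp4a31 and Cyp4a32, Cyp4a10 was given 92.5%, 94.4% and 96.5% in the wild type livers. In the LKO livers it was given 66.5%, 74.2% and 69.9%. Cyp4a32 was given 4.11%, 3.56% and 1.80% in wild type and 28.1%, 7.98% and 18.8% in LKO, and Cyp4a31 took 3.35%, 1.99% and 1.68% against 5.39%, 17.8% and 11.4%. None of these shares overlapped between the groups (exact permutation p = 0.1, two-sided, the smallest that 3 against 3 samples allow). Cyp4a10 remained the largest part of the set in every library.

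Cyp4a12a and Cyp4a12b are a pair of near-identical copies at the other end of the cluster. Cyp4a12a (ENSMUSG00000066071.6, chr4:115299046-115332815, plus strand) held 254, 125 and 268 in wild type and 244, 114 and 213 in LKO, so the groups overlapped almost fully. Replicate 2 was the lowest in both groups. The log2 fold change was −0.17 (SE 0.33, limma adjusted p = 0.83), and its direction turned when wild type replicate 3 or LKO replicate 2 was left out, to 0.02 and 0.16. Cyp4a12b (ENSMUSG00000078597.2, chr4:115411624-115439034, plus strand) held 50.8, 22.9 and 58.6 in wild type and 101, 19.4 and 56.0 in LKO. Its highest and lowest values were both in LKO livers. The log2 fold change was 0.23 (SE 0.52, limma adjusted p = 0.864), and it turned to −0.18 without wild type replicate 2 and to −0.30 without LKO replicate 1. The sum of both copies was 260 ± 97.4 (SD, n = 3) in wild type and 249 ± 107 in LKO, with a log2 difference of −0.08 (SE 0.55, exact permutation p = 0.8). With errors of this size, a moderate change of Cyp4a12a or Cyp4a12b in either direction was not detectable.

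**Figure D2:**
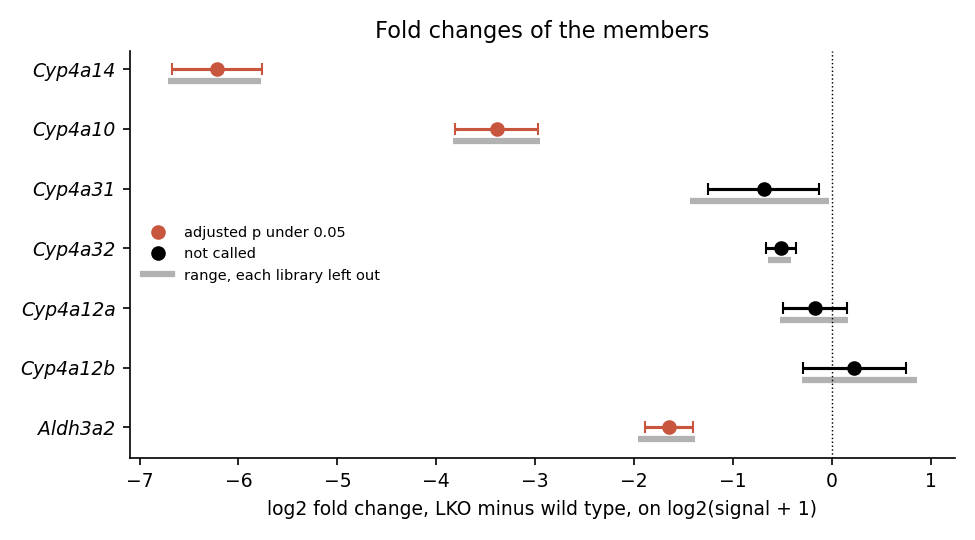
Log2 fold change of each member, LKO minus wild type, with its standard error (bars) and the range when each library is left out (grey); red points have an adjusted p under 0.05. The 3 called members stay at or below −1.38 in every such range, while the ranges of Cyp4a12a and Cyp4a12b cross 0.

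Members were then compared with each other within each mouse. For each of the 21 pairs, the log2 ratio of the 2 signals was compared between the groups, and in 13 pairs the 3 LKO ratios did not overlap the 3 wild type ratios. The exact permutation p of these was 0.1, the smallest possible here, and 0.162 after Benjamini-Hochberg adjustment over the 21 pairs, so none passed a threshold of 0.05. The pairs share members, so they are not independent, and every pair with Cyp4a14 was among the 13. The share over other gene pairs was not computed. Among single tested genes, 24.2% did not overlap between the groups in either direction. Cyp4a14 and Cyp4a10 changed places: the log2 ratio of Cyp4a10 to Cyp4a14 was −0.95, −0.45 and −0.72 in the wild type livers and 1.67, 1.999 and 2.69 in the LKO livers. Cyp4a14 was the higher of the pair in every wild type liver and the lower in every LKO liver, and the difference between the groups was 2.83 (SE 0.33). The ratio of Cyp4a14 to Cyp4a12a differed by −6.05 (SE 0.92) and that of Cyp4a14 to Aldh3a2 by −4.57 (SE 0.87), also with no overlap. For Cyp4a10 against Aldh3a2 the ratios overlapped, with a difference of −1.74 (SE 0.87, exact permutation p = 0.2). Cyp4a12a against Cyp4a12b differed by −0.40 (SE 0.36, exact permutation p = 0.4).

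Levels were compared between members per kilobase of the longest annotated transcript. In wild type, Cyp4a14 was at 676 ± 391 signal per kb (SD, n = 3), Cyp4a10 at 489 ± 279, Aldh3a2 at 238 ± 13.3 and Cyp4a12a at 89.0 ± 32.5. This order held in each of the 3 wild type livers. Cyp4a32, Cyp4a12b and Cyp4a31 followed at 19.3 ± 1.70, 18.4 ± 7.83 and 9.04 ± 2.59, where Cyp4a32 and Cyp4a12b did not differ beyond their spread. The annotated Cyp4a32 transcript has no untranslated regions, so its level per kb is not fully comparable.

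In LKO the order differed from mouse to mouse. Aldh3a2 came to 80.5 ± 34.2 signal per kb (SD, n = 3), Cyp4a12a to 78.6 ± 27.9 and Cyp4a10 to 46.4 ± 27.0, which did not differ beyond their spread. Aldh3a2 was first in LKO replicate 1, Cyp4a10 in replicate 2 and Cyp4a12a in replicate 3. Cyp4a14, the highest of the 7 in wild type, was at 9.07 ± 6.20 signal per kb, beside Cyp4a31 at 7.40 ± 7.26.

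The make-up of the Cyp4a family was read from shares of the summed signal. Of the summed Cyp4a signal per kb, Cyp4a14 held 51.6%, 48.4% and 53.6% in the wild type livers and 3.596%, 9.13% and 2.48% in the LKO livers. Cyp4a12a held 11.6%, 5.74% and 5.25% in wild type and 51.5%, 26.9% and 52.6% in LKO, while its own signal overlapped between the groups. Neither share overlapped (exact permutation p = 0.1 for each). The share of Cyp4a10 overlapped, at 31.5%, 41.9% and 38.4% against 14.1%, 44.0% and 20.5%. The summed signal of the 6 Cyp4a genes was 2114, 2075 and 4905 in wild type and 450, 394 and 383 in LKO, a 7.41-fold ratio of means (exact permutation p = 0.1, no overlap).

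**Figure D3:**
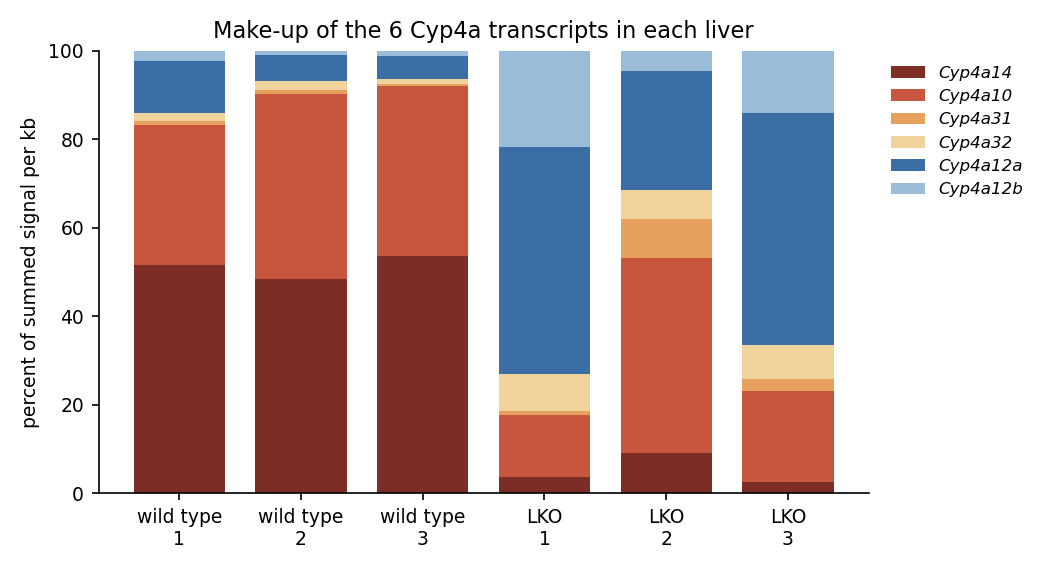
Share of each Cyp4a gene in the summed Cyp4a signal per kb, as percent, in each liver. Cyp4a14 takes 48.4% to 53.6% in wild type and 2.48% to 9.13% in LKO, where Cyp4a12a takes 26.9% to 52.6%.

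LKO replicate 2 lay at an end of the LKO values for every member. It was the highest of the 3 for Cyp4a14, Cyp4a10 and Cyp4a31, and the lowest for Aldh3a2, Cyp4a12a, Cyp4a12b and Cyp4a32. For Aldh3a2 (367, 163 and 216) and Cyp4a32 (24.6, 17.6 and 19.4), however, replicates 2 and 3 lay close together and replicate 1 stood apart. In LKO replicate 2 the 10 strongest genes took 24.2% of all signal, where the other 5 libraries ranged from 18.7% to 21.02%. Cux2, a transcription factor with higher expression in female than in male mouse liver, was at 20.8 in this library and at most 0.126 in each of the others; it was chosen after its values were seen. The Y-linked transcript Ddx3y was present in all 6 libraries, at 29.9 to 40.8, and Xist was listed at 0 in each. The part of these differences in the member values was not tested. Without LKO replicate 2, the log2 fold change was −6.72 for Cyp4a14, −3.83 for Cyp4a10 and −1.38 for Aldh3a2.

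The Cyp4a genes span 322.6 kb of chromosome 4, in the order Cyp4a12a, Cyp4a12b, Cyp4a14, Cyp4a10, Cyp4a31 and Cyp4a32. Cyp4a14 alone is on the minus strand, and its start lies 22.1 kb from that of Cyp4a10, so the 2 most strongly lowered members are neighbours that point away from each other. Of 11 tested genes within 500 kb of the cluster, 0 were called, beside 3.51% of all tested genes called in either direction. For so few genes, 0 calls are near what that share gives. The median log2 fold change of the 11 was −0.01, between −0.50 and 0.43, beside −0.002 for all tested genes. The nearest tested genes were Cyp4b1, a P450 with preference for short-chain fatty acids, 3.1 kb away at 0.24 (SE 0.21), and Pdzk1ip1 on the other side at −0.33 (SE 0.36). Around Aldh3a2, 0 of 16 tested genes within 500 kb were called, again near what the 3.51% share gives, with a median of 0.03. Its nearest tested neighbours were Usp22, a ubiquitin protease, at 0.01 (SE 0.13), and Slc47a1, an organic cation exporter, at −0.34 (SE 0.16).

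**Figure D4:**
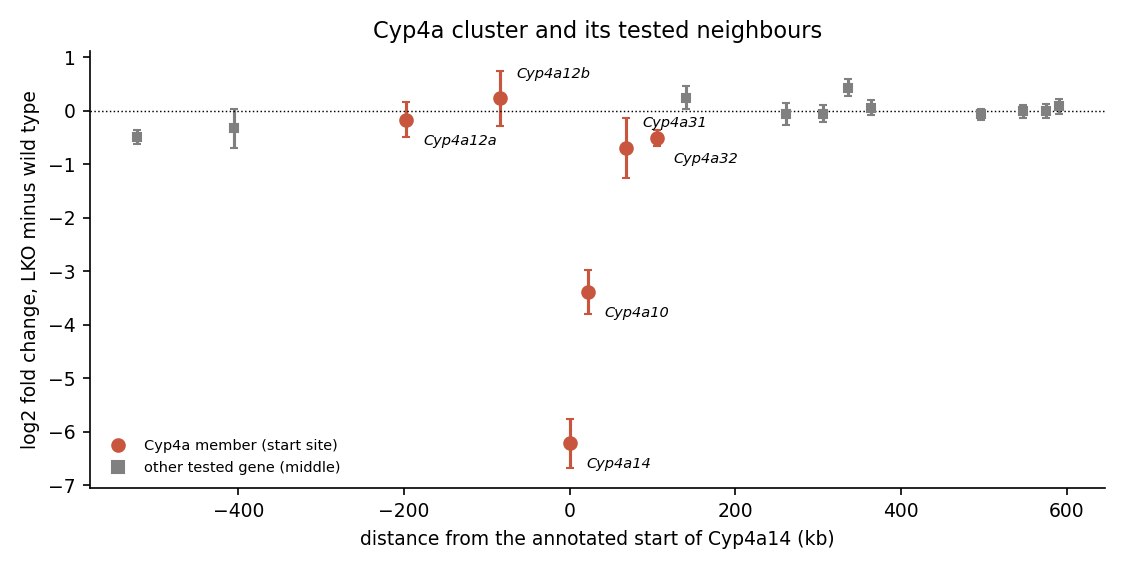
Log2 fold change with standard error of the 6 Cyp4a genes (red, at their start sites) and the tested neighbours within 500 kb (grey, at the gene's middle) against distance in kb from the annotated start of Cyp4a14. Cyp4a14 and Cyp4a10 stand 22.1 kb apart at −6.22 and −3.39, and the neighbours lie between −0.50 and 0.43.

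Sites for the deleted microRNAs were sought in the members. Mature let-7b and let-7c (RefSeq, GRCm38.p6) are shown with the seed, bases 2 to 8, in capitals, because the search used it. The let-7c strand comes from let-7c-2 at chr15:85706616-85706637, and let-7b lies at chr15:85707325-85707346, both on the plus strand. They differ at 1 base outside the seed.
let-7b-5p: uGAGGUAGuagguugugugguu
let-7c-5p: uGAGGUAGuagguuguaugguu
A match to the seed reads CTACCTC in the messenger RNA, and a downstream A makes the longer match CTACCTCA. Neither of these, nor the shorter TACCTCA, was found on the sense strand in the annotated 3′ untranslated regions of the 6 members that have one. Among 20962 genes, 8.85% hold CTACCTC, 3.01% hold the longer match that contains it, and 9.66% hold TACCTCA, which overlaps both. In the coding sequence, CTACCTC occurred at 2 places in Cyp4a10, and at 1 place each in Cyp4a31 and Cyp4a32, as it did in 12.6% of 21901 coding sequences. The Cyp4a10 matches are at coding bases 111 to 117 and 645 to 651, and the copies share the latter. Capitals mark the match.
Cyp4a10 first match: tgtccagttCTACCTCcacaggcaa
Cyp4a10 second match: ttacaggacCTACCTCcaggccatt
Cyp4a31 match: ttacaagacCTACCTCcaggccatt
Cyp4a14 and Aldh3a2 held no such match in either region. A match is a description of the letters, and its absence says only that these letters are not there. RefSeq promoter windows, from 250 bases before to 50 bases after the annotated start, were at hand for Cyp4a32 and Aldh3a2. The hexamer AGGTCA, the unit of the direct repeat that PPARα binds with its partner RXR, was found in neither on either strand. It was found in 16.3% of 32851 windows, so most windows lack it. Sites outside these short windows were not sought.

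Other enzymes of the omega-oxidation route were read from lists, some of which are whole gene families that also hold enzymes with other roles. Of all tested genes, 1.69% were lowered and 3.51% were called in either direction. In lists of so few genes, 0 calls are near what these shares give and do not set 1 step apart from another. Of the other Cyp4 hydroxylases 0 of 7 tested were called, with a median log2 fold change of 0.24. Cyp4v3, a fatty acid hydroxylase of the endoplasmic reticulum, went from 535 ± 61.1 (SD, n = 3) to 509 ± 271, at −0.19 (SE 0.29). Cyp4f14, a hydroxylase of leukotriene B4, went from 210 ± 18.5 to 312 ± 50.8, at 0.56 (SE 0.14, limma adjusted p = 0.0574). All 3 LKO values of Cyp4f14 lay above wild type, but the gene missed the threshold. Without LKO replicate 1, both genes passed it: Cyp4f14 was raised at 0.66 (SE 0.14, limma adjusted p = 0.0298) and Cyp4v3 lowered at −0.60 (SE 0.14, limma adjusted p = 0.0445).

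The electron donors of the P450 enzymes gave 0 calls of 4 tested, with a median of 0.03. Por, the P450 reductase, was at 754 ± 294 in wild type and 1003 ± 153 in LKO (SD, n = 3), with a log2 fold change of 0.49 (SE 0.28), and Cyb5a, cytochrome b5, was at 1040 ± 132 and 829.8 ± 84.6, with −0.32 (SE 0.14). The alcohol dehydrogenases, some of which act on the hydroxylated chain, gave 0 calls of 4 tested, with a median of −0.15. Adh1, the main liver form, had a log2 fold change of −0.22 (SE 0.17), and Adh5, the glutathione-dependent formaldehyde dehydrogenase, had −0.08 (SE 0.11).

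Among the other aldehyde dehydrogenases, 1 of 13 tested was lowered and 0 were raised, with a median of −0.19. The lowered gene was Aldh1a1, a cytosolic retinaldehyde dehydrogenase, at 1858, 1899 and 2265 in wild type and 984, 989 and 1151 in LKO. Its groups were well apart, and the log2 fold change was −0.94 (SE 0.14, limma adjusted p = 0.00764). A second gene was lowered besides it when 1 library was left out: Aldh9a1 without LKO replicate 1, at −0.57 (limma adjusted p = 0.0266), and Aldh1a7 without LKO replicate 3, at −0.87 (limma adjusted p = 0.0309); both were chosen after their values were seen.

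Peroxisomal enzymes that shorten dicarboxylic acids gave 4 lowered and 0 raised of 8 tested, all 8 had a fold change below 0, and their median was −0.74. Acot4, a thioesterase that releases succinate, had a log2 fold change of −2.14 (SE 0.29), and Acaa1b, a thiolase, had −1.59 (SE 0.22). Ehhadh, the bifunctional enzyme of the pathway, had −1.21 (SE 0.22). Without LKO replicate 2 or LKO replicate 3, 2 of the 8 were called.

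**Figure D5:**
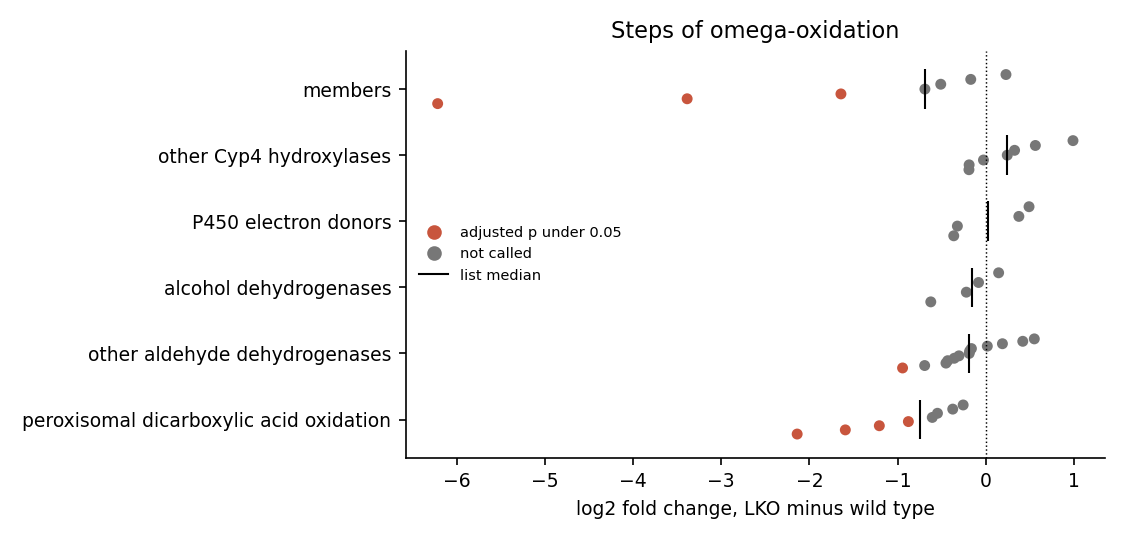
Log2 fold change, LKO minus wild type, of every tested gene among the members and the lists for the omega-oxidation route. Some lists are whole gene families that also hold enzymes with other roles. Red points have an adjusted p under 0.05 and black bars are list medians. With all 6 libraries, 3 of 7 members, 1 of 13 other aldehyde dehydrogenases and 4 of 8 peroxisomal enzymes were lowered. The other Cyp4 genes, electron donors and alcohol dehydrogenases had 0 lowered. In lists this short, that is near what the 1.69% lowered among all tested genes gives. Without LKO replicate 1, 1 other Cyp4 gene was lowered and 1 raised.

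Of 12 listed transcription regulators, 1 was lowered and 0 were raised, with a median log2 fold change of 0.08.

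Kupffer cell and macrophage markers were the one class of other liver cells with calls. All 12 Kupffer cell and macrophage markers had fold changes above 0, with a median of 0.81, and 5 were raised. None was listed at 0 in any library, and their summed signal was 139 to 157 in wild type and 209 to 304 in LKO. The sums of 8 sinusoidal endothelial markers were 105 to 124 and 131 to 156, with 0 called. These sums did not overlap either, and all 8 markers had fold changes above 0, with a median of 0.35. Of the hepatocyte markers 0 of 9 were called, with a median of 0.19 and overlapping sums of 151468 to 188034 and 150736 to 251320. These sums are mostly Alb, at 87753 to 152823. Singly, LKO lay wholly above wild type for Apoa1, Ahsg and Cps1, and wholly below for Ttr and Asgr1. Stellate cell markers gave 0 calls of 9, with a median of 0.10 and sums of 283 to 306 and 287 to 322. Singly, LKO lay wholly above for Col1a1 and Col3a1, and wholly below for Ecm1. Groups did not overlap in 24.2% of all tested genes. The 13 mitochondrially encoded transcripts gave 0 calls, all with fold changes below 0 and a median of −0.31. The part of these marker and mitochondrial values in the member values was not tested.

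Genes whose pattern over the 6 libraries was most like that of a member were taken by Pearson's r of log2(signal + 1). Because the libraries fall into 2 groups, r mostly follows the group difference for the lowered Cyp4a14 and Aldh3a2. All r values are given as a description. Most like Cyp4a14 were Ppa2, a mitochondrial pyrophosphatase (r = 0.998), C330007P06Rik (0.996) and Tfpi2, a protease inhibitor (0.991); Cyp4a10 had 0.981. Likeness here is of shape and not of size, since the log2 fold change of Ppa2 was −0.21. Most like Aldh3a2 were Dhrs4, a peroxisomal retinal reductase (0.999), Ces2e, a carboxylesterase (0.994), and Mrpl45, a mitochondrial ribosomal protein (0.994). Dhrs4 held 210, 216 and 220 in wild type and 156, 112 and 128 in LKO, so LKO replicate 1 was the highest and replicate 2 the lowest of the LKO livers, as for Aldh3a2. For Cyp4a12a they were Tmtc3 (0.996), Cfap97 (0.980) and 1 predicted gene, and Cyp4a12b had 0.902. The log2 fold changes of Tmtc3 and Cfap97 were −0.08 and −0.10, so r did not follow the group difference here. Tmtc3 held 6.51, 4.67 and 6.63 in wild type and 6.46, 4.47 and 5.79 in LKO. Replicate 2 was the lowest in both groups, as for Cyp4a12a.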

How the data were processed

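Liver RNA of 3 wild type and 3 LKO mice was extracted and made into stranded mRNA libraries, per the labels' protocols. Per the submitters' processing notes, mm10 was the build, and the tools, whose roles are not stated, included STAR 2.5.1, RSEM 1.2.22, edgeR, Trimmomatic 0.36, Picard 1.84 and bcl2fastq 2.17. The authors deposited 1 signal per gene and mouse, with no unit in the file headers. Its values are multiples of 0.01 of a library-specific step, as for an estimated count that was rescaled once per library. Whole reads, within 0.005, made up 82.0% to 83.1% of positive values. The deposited values were therefore taken as rescaled, and the planned test for normalized values was used. Genes with a mean signal of at least 1 were fitted as log2(signal + 1) with limma 3.58.1 (R 4.3.3, trended empirical Bayes, no block) and tested two-sided, and p-values were adjusted by Benjamini-Hochberg over all genes; calls have an adjusted p under 0.05. The log2(signal + 1) scale understates changes of low genes. Ratios and sums were compared by exact permutation tests (SciPy 1.17.1, Python 3.11.15). Coordinates and transcripts are from GENCODE M21 (GRCm38, the assembly of mm10), which held 13977 of 14002 gene identifiers, and coding sequences were aligned with Biopython 1.88.

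The members and lists were chosen with earlier results of these data known. Text names all members, up to 4 called genes of each list (otherwise the 2 highest), called or nearest neighbours, and the 3 genes most like Cyp4a14, Cyp4a12a and Aldh3a2. Some genes the rule takes are counted but not reported here by name. Nothing says that the mice came from separate litters or that libraries were prepared apart, so p-values measure the spread between these samples. Alternatives covered pseudocounts, filters, scaling, limma-voom, a replicate block, summed copies and each library left out.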

Additional observations from a re-analysis of the deposited data

How the results depend on the processing

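The number of lowered members was 3 under all 8 other settings (pseudocounts of 0.1 and 5, no filter, a mean of at least 5, median-of-ratios factors, library size alone, limma-voom and the replicate block). Over these, Cyp4a14 ranged from −6.35 to −5.94, Aldh3a2 from −1.71 to −1.63 and Cyp4a10, summed copies included, from −3.46 to −2.96, and all stayed called. Leaving out each library in turn gave −6.72 to −5.78, −1.96 to −1.38 and −3.83 to −2.95 for the same genes, and 3 to 4 lowered members. Cyp4a31 ranged from −1.44 to −0.03 without a call. Over the same omissions Cyp4a32 ranged from −0.64 to −0.41, with its call gained without LKO replicate 1; Cyp4a12a ranged from −0.52 to 0.16, reversed at 0.02 and 0.16, and Cyp4a12b from −0.30 to 0.86, reversed at −0.18 and −0.30, and the cause was not tested. Genes raised numbered 76 to 277 and genes lowered 79 to 263, where fewer samples entered each fit. The highest counts, 277 and 263, came without LKO replicate 1, and every other omission gave fewer than the 203 and 189 of all 6 libraries. The reason for this was not tested.

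The replicate numbers are not stated to pair the mice. Deviations of same-numbered libraries correlated at 0.0465, 0.0324 and 0.0535, and every library correlated best with its own number, a hint from the data only. With the replicate block, 217 genes were raised and 199 lowered against 203 and 189, 3 members were lowered, Cyp4f14 was raised (0.56, limma adjusted p = 0.0427), and 2 other aldehyde dehydrogenases were lowered instead of 1, the second being Aldh1a7, which also passed with library size alone (−0.76, limma adjusted p = 0.0469). Library size alone moved the median of all genes by −0.065. Reads divided between near-identical copies limit Cyp4a10, Cyp4a31, Cyp4a32, Cyp4a12a and Cyp4a12b one by one, and 3 mice a group limit every exact test to p = 0.1.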

Other observations

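Values of other aldehyde dehydrogenases that missed the threshold with all 6 libraries follow; these genes were chosen after their values were seen. Aldh1a7, a close relative of the lowered Aldh1a1, held 213, 238 and 278 in wild type and 141, 123 and 190 in LKO, with a log2 fold change of −0.69 (SE 0.17, limma adjusted p = 0.056). The groups did not overlap. Aldh1l1, the formyltetrahydrofolate dehydrogenase, lay the other way, at 1539, 1685 and 1478 against 1992, 1912 and 2405, with 0.42 (SE 0.15, limma adjusted p = 0.159). Cyp4a32, the member with the smallest fold change among those whose groups did not overlap, had r = 0.977 with Aldh3a2 over the 6 libraries, on values that share reads with Cyp4a10.

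Pparg, a lipid-storage receptor related to PPARα, was at 9.12, 7.95 and 10.8 in wild type and 5.28, 1.79 and 4.01 in LKO, with a log2 fold change of −1.20 (SE 0.29, limma adjusted p = 0.053). Lrp2, a tubule marker and the 1 gene tested of the kidney list, was raised from 1.04 ± 0.48 to 5.28 ± 1.22 (SD, n = 3), with a log2 fold change of 1.63 (SE 0.26, limma adjusted p = 0.0108). The 1 lymphocyte and leukocyte marker tested and the 2 cholangiocyte markers tested were not called.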
